A study of Mus musculus with 18 samples.

Results

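The activity-induced immediate early genes followed here are Fos, Fosb, Fosl2, Junb, Egr1, Egr3, Arc, Nr4a1, Nr4a2 and Nr4a3. These 10, of the 22783 genes in the deposited table, were chosen by symbol, with earlier results of these data known. All 10 had a value above 0 in every library. The tests across genes covered 13487 genes with an FPKM (a level scaled to transcript length and to the mapped fragments of the library) of at least 1 in at least 3 libraries, and 8 of the 10 passed that filter. Of these, Nr4a3 reached 1 FPKM in 16 libraries and the other 7 in all 18. Fosb and Egr3 never reached 1 FPKM. The samples were 18 cerebellar RNA libraries from FVB mice, 3 in each of 6 groups. The transgenic mice, labelled ATXN1[30Q]D776/Cck-/-, were studied at 5, 12 and 28 weeks of age, and so were the mice labelled Cck-/- that served as their controls. All mice therefore carry the label Cck-/-, which stands for loss of both copies of the gene of the neuropeptide cholecystokinin, and libraries from mice with a working Cck gene were not analysed here. The transgene encodes ataxin-1, whose expansion underlies a hereditary ataxia, with a tract of 30 glutamines and an aspartate where the normal protein has a serine that is phosphorylated. Its promoter is not named in the labels, and as background the published line of that name uses the Pcp2 promoter, which is active in Purkinje cells. No group was labelled as having received a stimulus, and neither the time of day nor the handling at collection is stated in the labels.

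Immediate early genes are transcribed within minutes of a stimulus, such as synaptic activity or a growth factor, without the need for new protein. Calcium entry and cyclic AMP activate kinases, which phosphorylate factors such as CREB and SRF already bound at these genes, and the short-lived transcripts decay when the stimulus ends. Their products fall into several kinds: AP-1 transcription factors (the Fos and Jun families), zinc-finger factors (Egr1, Egr3), orphan nuclear receptors (the NR4A family), and effectors at the synapse such as Arc, which drives removal of AMPA receptors from the membrane. In the cerebellum they are widely used as markers of recent activity in granule cells and Purkinje cells.

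Several features of the libraries bear on the values below. Nothing in the labels states that replicate libraries are separate animals, so p-values measure the spread between libraries, which may be technical. FPKM summed to 389200 to 441500 per library. Read counts were not analysed here, but the spacing of low values gave an estimate of the depth of each library relative to the Cck-/- week 5 replicate 1, and it was 1.41 to 1.85 at week 28 against 0.797 to 1.17 at weeks 5 and 12. Age at week 28 and this depth, with whatever else was shared in making those libraries, cannot be told apart. The Cck gene was above 0 in all libraries, at 81.0 to 112 FPKM in the transgenic libraries of week 5, 4.85 to 17.2 FPKM in the other transgenic libraries and 3.71 to 25.8 FPKM in Cck-/- libraries. Gene-level values cannot locate reads within the Cck gene, so libraries are named as labelled. Markers of granule and Purkinje cells reached 1 FPKM for 10 of 10 genes each, whereas the midbrain genes Slc6a3 and Pitx3 stayed under 0.1 FPKM. The transgenic week 12 replicate 2 and the transgenic week 28 replicate 1 held both Xist and Y-linked transcripts, and the transgenic week 5 replicates 1 and 2 and the transgenic week 28 replicate 3 were low in choroid plexus transcripts. Xist was at 66.3 to 104 FPKM in Cck-/- replicate 1 of weeks 5 and 12 and Cck-/- replicates 2 and 3 of week 28. It was at most 0.882 FPKM in the other Cck-/- libraries. Transgenic replicates 1 and 3 of week 5 had 99.6 and 61.2 FPKM, and replicates 1 and 2 of week 12 had 107 and 58.8 FPKM. Transgenic replicates 2 and 3 of week 28 had 116 and 91.4 FPKM, and the remaining transgenic libraries had at most 3.23 FPKM. The mix of the sexes therefore differed between ages in Cck-/- libraries, and between genotypes at weeks 5 and 12.

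Nr4a1, Nr4a2, Nr4a3 and Fosl2 were lower at week 28 than at week 12 in both genotypes, and none of the 8 tested genes passed the test between transgenic and Cck-/- libraries of the same age. Over the 18 libraries the mean levels ran in the order Fos 14.3, Egr1 11.8, Nr4a1 10.7, Arc 7.92, Junb 6.09, Nr4a2 5.42, Nr4a3 5.14 and Fosl2 3.17 FPKM, then Egr3 0.283 and Fosb 0.275 FPKM. The ratio of the highest to the lowest library was 1.57 for Arc, 1.75 for Junb and 2.33 for Egr1, and it was 8.51 for Fos and 16.0 for Nr4a3. These ratios differed widely among the genes of the group.

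**Figure D1:**
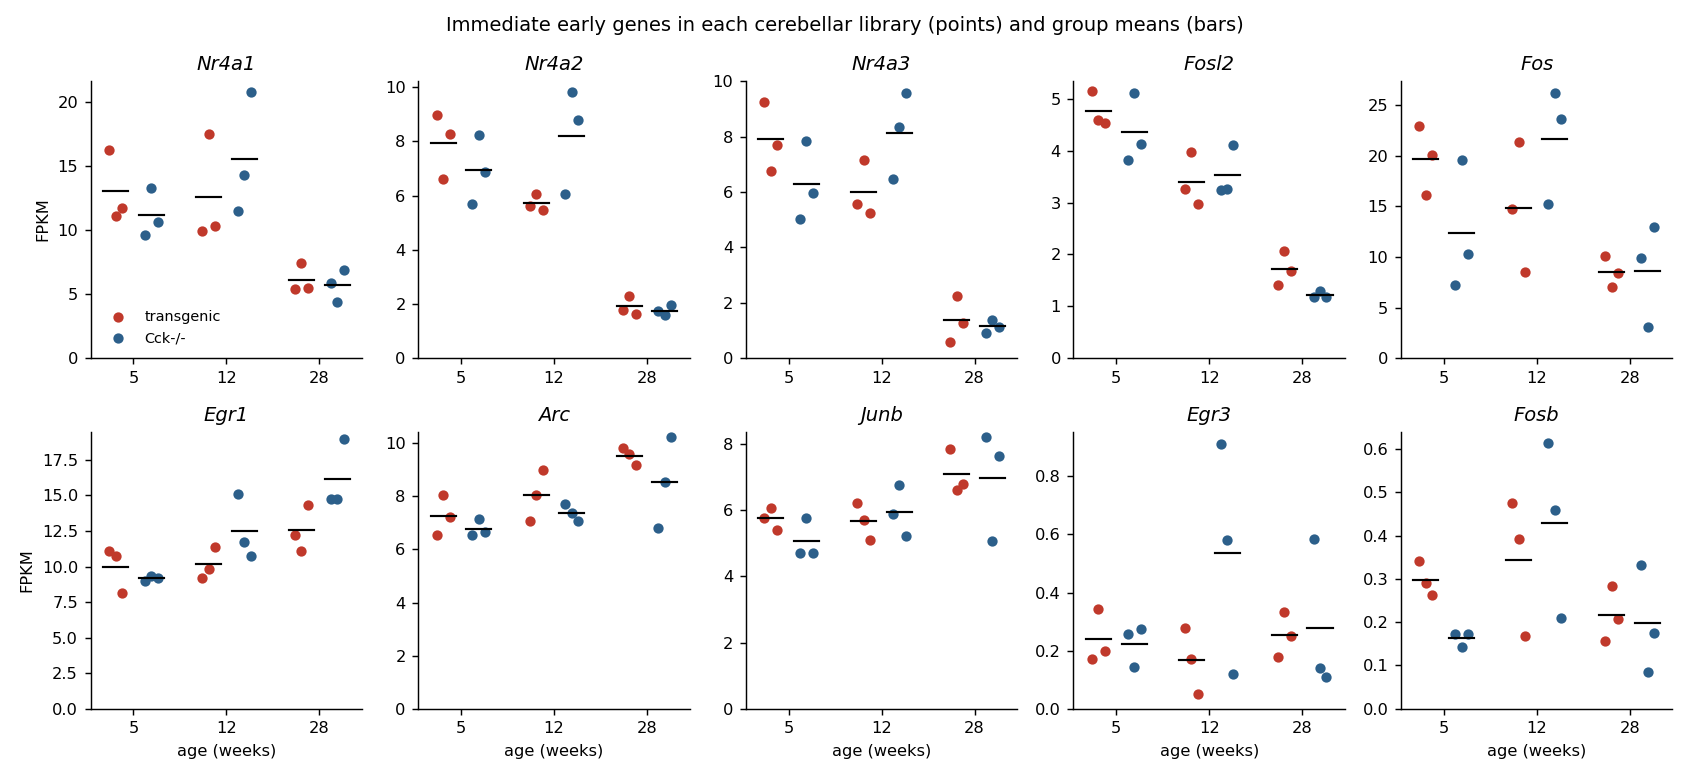
FPKM (y axis, linear from 0, a separate scale for each gene) of the 10 genes at 5, 12 and 28 weeks (x axis) in transgenic libraries (red, left) and Cck-/- libraries (blue, right). Points are libraries and bars are means of 3. Nr4a1, Nr4a2, Nr4a3 and Fosl2 are lowest at week 28 in both genotypes, Fos scatters widely within groups, and Fosb and Egr3 stay under 1 FPKM.

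The 3 NR4A receptors are transcription factors that bind DNA without a known physiological ligand and are induced by calcium and cyclic AMP signals. Nr4a2 (mm10, chr2:57107226-57124003, minus strand), also called Nurr1 and known for its role in dopamine neurons, stood in transgenic libraries at 8.99, 6.60 and 8.29 FPKM at week 5, at 5.61, 6.05 and 5.48 at week 12, and at 1.78, 2.31 and 1.63 at week 28. The Cck-/- libraries gave 5.69, 8.24 and 6.86 FPKM at week 5, 6.05, 9.82 and 8.78 at week 12, and 1.74, 1.59 and 1.95 at week 28. All 6 libraries of week 28 were below all 12 of the earlier ages. The week 28 mean was 0.334 of the week 12 mean in transgenic libraries (log2 fold change -1.21, SE 0.15, adjusted p = 0.000192; limma with Benjamini-Hochberg adjustment) and 0.214 of it in Cck-/- libraries (-1.72, SE 0.15, adjusted p = 5.26e-06). In whole tissue, fewer cells of a type and less RNA per cell cannot be told apart. Fold changes are on the scale of log2(FPKM + 1) throughout, which understates the change of low genes. The group means fell in the order Cck-/- week 12 (8.22), transgenic week 5 (7.96), Cck-/- week 5 (6.93), transgenic week 12 (5.72), transgenic week 28 (1.91) and Cck-/- week 28 (1.76 FPKM), and neighbours in that order overlapped except across the step to week 28.

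Nr4a3 (chr4:48051248-48083352, plus strand), also called Nor1, showed the largest fold change of the 8 tested genes between weeks 28 and 12 in each genotype. In transgenic libraries it had 9.25, 6.77 and 7.70 FPKM at week 5, 5.55, 7.16 and 5.24 at week 12, and 0.598, 2.26 and 1.28 at week 28. The Cck-/- libraries had 5.02, 7.85 and 5.96 FPKM at week 5, 6.46, 8.33 and 9.56 at week 12, and 0.899, 1.39 and 1.14 at week 28. Again no library of week 28 reached any library of weeks 5 or 12. The fold change from the week 12 level was -1.60 (SE 0.22, adjusted p = 0.000349) in transgenic libraries and -2.08 (SE 0.22, adjusted p = 4.87e-05) in Cck-/- libraries. Without the 2 transgenic libraries that held both Xist and Y-linked transcripts, the transgenic value was -1.23 (adjusted p = 0.00793), and that of Nr4a2 was -1.15 (adjusted p = 0.00756).

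Nr4a1 (chr15:101266846-101274794, plus strand), also called Nur77 and the most highly expressed of the 3 in every group, followed the same course with more scatter. It stood in transgenic libraries at 16.2, 11.1 and 11.7 FPKM at week 5, at 9.94, 17.5 and 10.3 at week 12, and at 5.36, 7.41 and 5.49 at week 28. Its Cck-/- levels were 9.60, 13.3 and 10.6 FPKM at week 5, 11.5, 14.3 and 20.8 at week 12, and 5.86, 4.41 and 6.85 at week 28. Week 28 lay below week 12 without overlap in both genotypes. The fold change was -0.91 (SE 0.23, adjusted p = 0.0121) in transgenic libraries and -1.28 (SE 0.23, adjusted p = 0.00411) in Cck-/- libraries. The transgenic call depended on single libraries. It was -0.66 (adjusted p = 0.0620) without the transgenic week 12 replicate 2, -0.84 (adjusted p = 0.0511) without the transgenic week 28 replicate 1, and -0.59 (adjusted p = 0.163) without both, whereas a fit of the compared groups alone took the Cck-/- value to an adjusted p of 0.0567.

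The promoters of the 4 genes that fell in both genotypes are shown with that of Fos, which carries a well-studied CREB site, because these 4 genes moved together and CREB is known to act at genes of this class. The sequences are RefSeq promoters on GRCm38.p6 (250 bases before to 50 after the transcript start, 300 in all), read 5′ to 3′ on the strand of the gene. Of the 10 genes, 7 were in the promoter table, and Egr1, Egr3 and Arc were not. Capitals mark TGACG, the core of the cAMP response element (CRE), on either strand, so that CGTCA is the same motif on the other strand.
Nr4a1 (chr15:101266596-101266895, plus strand): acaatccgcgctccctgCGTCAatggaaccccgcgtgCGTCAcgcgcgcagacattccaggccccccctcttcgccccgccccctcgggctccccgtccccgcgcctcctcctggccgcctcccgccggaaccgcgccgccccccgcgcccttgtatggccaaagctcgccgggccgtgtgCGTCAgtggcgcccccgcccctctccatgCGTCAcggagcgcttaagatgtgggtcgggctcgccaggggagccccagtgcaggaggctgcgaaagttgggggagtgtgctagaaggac
Nr4a2 (chr2:57123954-57124253, minus strand): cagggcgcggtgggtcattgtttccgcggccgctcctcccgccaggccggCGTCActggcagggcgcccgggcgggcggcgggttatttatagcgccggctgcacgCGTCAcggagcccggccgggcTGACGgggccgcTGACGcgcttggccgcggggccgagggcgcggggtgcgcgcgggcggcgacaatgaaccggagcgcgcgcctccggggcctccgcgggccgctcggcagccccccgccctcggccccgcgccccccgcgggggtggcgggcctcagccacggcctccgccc
Nr4a3 (chr4:48045055-48045354, plus strand): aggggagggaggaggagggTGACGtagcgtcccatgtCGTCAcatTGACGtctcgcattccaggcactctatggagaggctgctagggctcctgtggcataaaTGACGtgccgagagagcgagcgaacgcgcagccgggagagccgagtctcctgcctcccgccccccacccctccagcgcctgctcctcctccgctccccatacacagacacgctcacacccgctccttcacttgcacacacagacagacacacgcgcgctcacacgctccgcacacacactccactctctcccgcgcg
Fosl2 (chr5:32136222-32136521, plus strand): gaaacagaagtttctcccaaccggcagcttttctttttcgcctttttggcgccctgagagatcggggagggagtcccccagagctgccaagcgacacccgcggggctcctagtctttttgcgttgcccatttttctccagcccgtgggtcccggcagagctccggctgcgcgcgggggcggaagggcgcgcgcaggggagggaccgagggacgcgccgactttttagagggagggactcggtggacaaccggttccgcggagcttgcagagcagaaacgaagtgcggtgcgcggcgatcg
Fos (chr12:85473640-85473939, plus strand): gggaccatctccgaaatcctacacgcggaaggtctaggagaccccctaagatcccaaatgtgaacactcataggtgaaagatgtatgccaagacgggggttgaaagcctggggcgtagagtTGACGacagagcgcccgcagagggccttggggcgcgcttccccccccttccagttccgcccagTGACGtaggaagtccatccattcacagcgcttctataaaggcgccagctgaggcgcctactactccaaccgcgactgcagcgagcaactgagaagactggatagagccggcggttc

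The promoters of Nr4a1, Nr4a2 and Nr4a3 held 4 TGACG cores each, that of Fos 2, those of Fosb and Junb 1 each, and that of Fosl2 0. Of 32851 RefSeq promoters of the same length, not matched for base composition, 20.8% held at least 1 core and 1.03% held 3 or more. Counted from the transcript start, the cores began at -233, -213, -69 and -40 in Nr4a1, at -200, -144, -123 and -111 in Nr4a2, and at -231, -213, -205 and -147 in Nr4a3. The Nr4a3 window belongs to a start upstream of the locus given in the deposited table. None of the 7 windows matched the full CRE TGACGTCA (1.79% of promoters; it contains the core), the AP-1 site TGANTCA (7.81%), the EGR site GCGTGGGCG (0.612%), the NR4A site AAAGGTCA (1.51%) or the CArG box bound by SRF (1.63%), searched on both strands. A match is a description of the letters and says nothing of binding.

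Among the AP-1 genes, Fosl2 (chr5:32136472-32157839, plus strand), which encodes Fra-2, fell with the NR4A genes. In transgenic libraries it had 5.14, 4.58 and 4.54 FPKM at week 5, 3.26, 3.98 and 2.98 at week 12, and 1.41, 2.06 and 1.69 at week 28. The Cck-/- values were 3.82, 5.11 and 4.12 FPKM at week 5, 3.24, 3.27 and 4.10 at week 12, and 1.18, 1.30 and 1.19 at week 28. The week 28 libraries were below all earlier ones in each genotype. The fold change between weeks 28 and 12 was -0.69 (SE 0.11, adjusted p = 0.000890) in transgenic libraries and -1.03 (SE 0.11, adjusted p = 7.04e-05) in Cck-/- libraries, and the transgenic value was -0.52 (adjusted p = 0.0225) without the libraries with Xist and Y-linked transcripts.

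Fos (chr12:85473901-85477270, plus strand), the prototype of the class, varied more between libraries of a group than any other tested member. Its transgenic values were 22.9, 16.1 and 20.0 FPKM at week 5, 14.8, 21.3 and 8.52 at week 12, and 10.1, 6.99 and 8.42 at week 28. Its Cck-/- values were 7.27, 19.6 and 10.3 FPKM at week 5, 15.2, 26.2 and 23.6 at week 12, and 9.91, 3.08 and 12.9 at week 28. The lowest Fos library was the Cck-/- week 28 replicate 2 and the highest the Cck-/- week 12 replicate 2. The difference between weeks 28 and 12 was -0.67 (95% interval -1.56 to 0.22, adjusted p = 0.260) in transgenic libraries and -1.38 (-2.27 to -0.48, adjusted p = 0.0508) in Cck-/- libraries, so neither passed. The Cck-/- value did pass, at -1.73 and an adjusted p of 0.0352, without the Cck-/- week 28 replicate 3, and it was -0.84 (adjusted p = 0.178) without the Cck-/- week 28 replicate 2.

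Junb (chr8:84976909-84978748, minus strand), an AP-1 partner of Fos, had its highest mean at week 28 in both genotypes. The means were 5.75 ± 0.33, 5.68 ± 0.55 and 7.10 ± 0.67 FPKM at weeks 5, 12 and 28 in transgenic libraries, and 5.06 ± 0.61, 5.96 ± 0.77 and 6.98 ± 1.67 FPKM in Cck-/- libraries (SD, n = 3 each). Between weeks 28 and 12 the log2 difference was 0.28 (adjusted p = 0.135) in transgenic and 0.18 (adjusted p = 0.410) in Cck-/- libraries. Fosb (chr7:19302696-19310045, minus strand), from which the long-lived product of repeated stimulation is made, lay between 0.157 and 0.474 FPKM in transgenic libraries and between 0.0859 and 0.613 FPKM in Cck-/- libraries. At such levels few fragments stand behind a value. In a fit with no filter, the lowest adjusted p that Fosb or Egr3 had in any of 13 comparisons was 0.112.

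The zinc-finger factor Egr1 (chr18:34861207-34864956, plus strand), a standard marker of neuronal activity, was higher at week 28 than at week 5 in Cck-/- libraries. Its transgenic values were 11.1, 10.8 and 8.12 FPKM at week 5, 9.22, 9.83 and 11.4 at week 12, and 12.2, 11.1 and 14.3 at week 28. Its Cck-/- values were 8.97, 9.35 and 9.20 FPKM at week 5, 15.1, 11.7 and 10.7 at week 12, and 14.8, 14.7 and 18.9 at week 28. The Cck-/- libraries of week 28 lay above those of week 5 without overlap, as did the transgenic ones by a narrow margin. Between weeks 28 and 5 Egr1 rose by 0.74 (SE 0.13, adjusted p = 0.000700) in Cck-/- libraries, and the difference was 0.31 (SE 0.13, adjusted p = 0.0873) in transgenic libraries. Between weeks 28 and 12 it was 0.28 (adjusted p = 0.142) in transgenic and 0.35 (adjusted p = 0.116) in Cck-/- libraries, which did not pass. Egr3 (chr14:70077445-70082613, plus strand) lay between 0.05 and 0.344 FPKM in transgenic libraries and between 0.110 and 0.911 FPKM in Cck-/- libraries.

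Arc (chr15:74669081-74672570, minus strand), the synaptic effector of the group, had the smallest ratio of highest to lowest library. It stood in transgenic libraries at 6.53, 8.06 and 7.21 FPKM at week 5, at 7.08, 8.06 and 8.99 at week 12, and at 9.80, 9.58 and 9.18 at week 28. Arc in the Cck-/- libraries was at 6.53, 7.14 and 6.64 FPKM at week 5, 7.73, 7.38 and 7.06 at week 12, and 6.81, 8.52 and 10.2 at week 28. The transgenic libraries of week 28 were above both earlier ages without overlap, and the Cck-/- ages overlapped. Between weeks 28 and 5 Arc rose by 0.35 in transgenic libraries (SE 0.11, adjusted p = 0.0187), and the Cck-/- difference was 0.28 (SE 0.11, adjusted p = 0.0569). That Cck-/- difference did pass without the Cck-/- week 28 replicate 1 (0.41, adjusted p = 0.00422). The transgenic call was lost without the transgenic week 5 replicate 1 (adjusted p = 0.0829), the transgenic week 28 replicate 1 (adjusted p = 0.0602) or the transgenic week 28 replicate 2 (adjusted p = 0.0523), and without the libraries with Xist and Y-linked transcripts (adjusted p = 0.0717).

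Counted over the 8 tested genes, the age comparisons read as follows. Between weeks 28 and 12, 4 of 8 fell and 0 rose in transgenic libraries, where 23.8% of all genes tested were called and 13.7% fell. The share called in either direction was 13%, down from 23.8%, without the transgenic week 28 replicate 2. In Cck-/- libraries the same 4 of 8 fell and 0 rose, where 9.65% of all genes were called and 5.62% fell, and 4.71% were called without the Cck-/- week 12 replicate 3. The ages did not overlap for 6 of 8 in transgenic libraries, where 38.1% of all genes did not overlap, and for 5 of 8 in Cck-/- libraries, where 30% of all genes did not. The median difference of the 8 was -0.68 in transgenic and -1.15 in Cck-/- libraries, beside medians over all genes of -0.0031 in transgenic and -0.00079 in Cck-/- libraries. Between weeks 12 and 5, 0 of 8 passed in either genotype, where 1.19% of all genes were called in transgenic and 11.8% in Cck-/- libraries. At an unadjusted p under 0.05 there were 2 in each, Fosl2 and Nr4a2 in transgenic libraries and Fosl2 and Egr1 in Cck-/- libraries.

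Between weeks 28 and 5, a comparison that shares the week 28 libraries with the last, 6 of 8 passed in each genotype, where 36.9% of all genes were called in transgenic and 33.7% in Cck-/- libraries. The ages did not overlap for 8 of 8 in transgenic libraries, where 49.8% of all genes did not overlap, and for 5 of 8 in Cck-/- libraries, where 47.5% of all genes did not. Nr4a1, Nr4a2, Nr4a3 and Fosl2 fell in both genotypes. In transgenic libraries Fos also fell (-1.12, adjusted p = 0.0473) and Arc rose. In Cck-/- libraries Egr1 rose and Junb rose (0.38, adjusted p = 0.0373). The calls of Fos and Junb were fragile. That of Fos was lost without any of the 6 libraries compared, with adjusted p from 0.0604 to 0.136, and without the libraries with Xist and Y-linked transcripts (adjusted p = 0.0652). That of Junb was lost without the Cck-/- week 5 replicates 1 or 3 or the Cck-/- week 28 replicates 1 or 3, with adjusted p from 0.110 to 0.156, and when the fit left out the transgenic libraries low in choroid plexus transcripts (adjusted p = 0.0618). Without the transgenic libraries low in choroid plexus transcripts, 3 of 8 passed in transgenic libraries (Nr4a2, Nr4a3 and Fosl2), and the Nr4a1 value was -0.80 (adjusted p = 0.137).

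**Figure D2:**
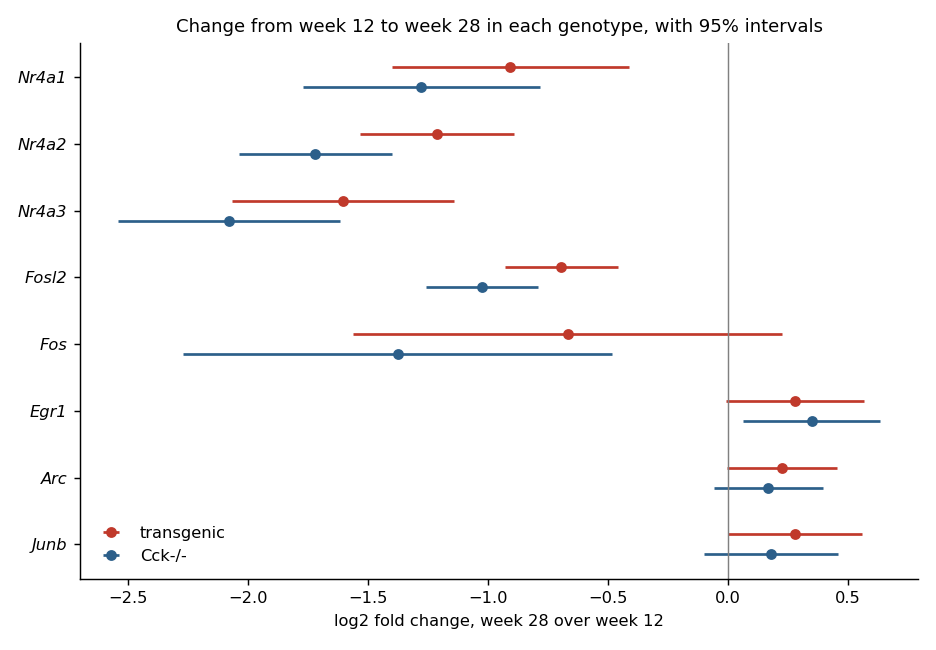
Log2 fold change of week 28 over week 12 (x axis, on the log2(FPKM + 1) scale) for the 8 tested genes (rows) in transgenic (red, upper) and Cck-/- libraries (blue, lower). Points are limma estimates and bars 95% intervals from 12 residual degrees of freedom. The intervals of Nr4a1, Nr4a2, Nr4a3 and Fosl2 lie below 0 in both genotypes, and the estimates of Egr1, Arc and Junb lie above 0.

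The genotype comparison asks whether mutant ataxin-1 alters these genes at a given age. At week 5, 0 of 8 passed, where 7.67% of all genes were called. At week 12, 0 of 8 passed, where 1.36% were called, and at week 28, 0 of 8 passed, where 10.7% were called. The shares of all genes were 3.4% at week 5 without the Cck-/- week 5 replicate 3, 0.437% at week 12 without the transgenic week 12 replicate 2 and 4.58% at week 28 without the transgenic week 28 replicate 2. Averaged over the 3 ages, 0 of 8 passed, where 14.8% were called. At an unadjusted p under 0.05 there were 0, 1, 2 and 1 of 8 in these comparisons.

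The members nearest to a genotype difference were Nr4a2, Egr1 and Fosl2. Nr4a2 was at 5.72 ± 0.30 FPKM in transgenic and 8.22 ± 1.95 FPKM in Cck-/- libraries of week 12 (SD, n = 3 each), with a difference of -0.43 (95% interval -0.75 to -0.11, adjusted p = 0.215). Egr1 was at 12.6 ± 1.61 FPKM in transgenic and 16.2 ± 2.42 FPKM in Cck-/- libraries of week 28 (difference -0.34, interval -0.62 to -0.051, adjusted p = 0.126). It did pass with the choroid plexus level as a covariate, at -0.42 and an adjusted p of 0.0364, and with weighted libraries, at -0.33 and an adjusted p of 0.0244. Fosl2 was at 1.72 ± 0.33 FPKM in transgenic and 1.22 ± 0.069 FPKM in Cck-/- libraries of week 28 (difference 0.29, interval 0.050 to 0.52, adjusted p = 0.115). These were also the cases in which the genotypes did not overlap at an age: 0 of 8 genes at week 5, 1 at week 12 and 2 at week 28, where 31.2%, 16.7% and 26.1% of all genes did not overlap.

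The intervals show what differences the data leave room for. For Arc at week 28 the interval ran from -0.070 to 0.39, for Nr4a2 from -0.25 to 0.39, and for Nr4a3 from -0.37 to 0.56. For Fos it ran from -0.75 to 1.03, so the data leave room for any difference in Fos between those ends. Whether the genotype effect changed with age was tested as an interaction. It passed for 0 of 8 genes between weeks 12 and 5 (0.667% of all genes called), 0 of 8 between weeks 28 and 12 (0% called) and 0 of 8 between weeks 28 and 5 (3.65% called), with 3, 1 and 1 of 8 at an unadjusted p under 0.05. The 0% over all genes was 1.1% without the transgenic week 28 replicate 3. The fall of Nr4a2 between weeks 12 and 28 was smaller in transgenic libraries by 0.51 (95% interval 0.053 to 0.96, adjusted p = 0.462), which did not pass, so a difference between the genotypes in how far these genes fell was not shown.

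**Figure D3:**
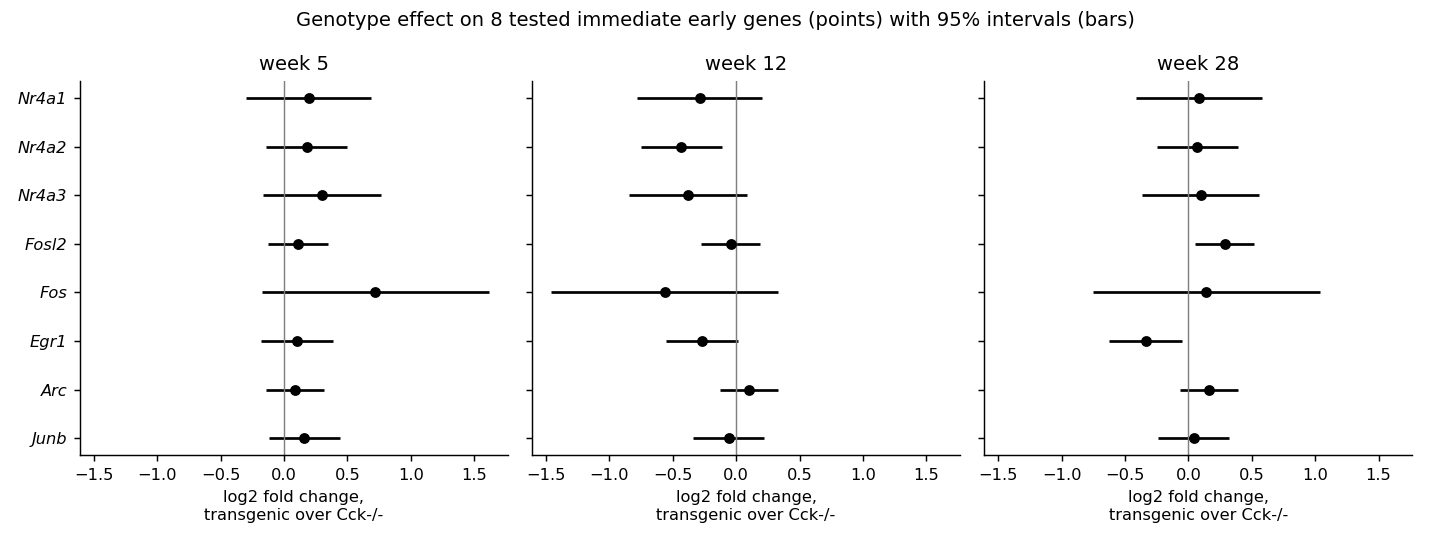
Log2 fold change of transgenic over Cck-/- libraries (x axis) for the 8 tested genes (rows) at weeks 5, 12 and 28 (panels, left to right). Points are limma estimates and bars 95% intervals. None passed an adjusted p of 0.05, and the interval of Fos is the widest at each age.

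Other parts of the activity-dependent programme showed a mixed picture between weeks 28 and 12. Signalling feedback genes, most of them inhibitors of the MAP kinase pathway that activity switches on, had 16 members tested: 1 rose and 6 fell in transgenic libraries, and 1 rose and 7 fell in Cck-/- libraries. Over all genes, 23.8% were called and 13.7% fell in transgenic libraries, and 9.65% were called and 5.62% fell in Cck-/- libraries. In transgenic libraries 4 of 16 fell without the libraries with Xist and Y-linked transcripts. The single rise in Cck-/- libraries was lost on leaving out any 1 of 5 of the 6 libraries compared. The median was -0.19 in transgenic and -0.33 in Cck-/- libraries. The MAP kinase phosphatase Dusp4 was at 1.45 ± 0.25 FPKM at week 28 and 3.45 ± 0.35 FPKM at week 12 in transgenic libraries, and at 2.00 ± 0.28 FPKM at week 28 and 4.93 ± 0.13 FPKM at week 12 in Cck-/- libraries (SD, n = 3 each; log2 fold change -0.87 with adjusted p = 0.000258 in transgenic and -0.99 with adjusted p = 0.000108 in Cck-/- libraries). Spry4, an inhibitor of receptor tyrosine kinase signalling, fell by 0.94 in transgenic libraries (adjusted p = 0.00128) and by 1.25 in Cck-/- libraries (adjusted p = 0.000340). Dusp6, a phosphatase of ERK, fell by 0.74 in transgenic libraries (adjusted p = 0.000113) and by 0.57 in Cck-/- libraries (adjusted p = 0.00113). The pseudokinase gene Trib1 fell by 0.53 in transgenic libraries (adjusted p = 0.000838) and by 0.70 in Cck-/- libraries (adjusted p = 0.000217). All 4 kept an adjusted p under 0.05 when any library compared was left out.

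Late activity genes, whose products act at synapses, had 13 members tested, of which 5 fell and 0 rose in transgenic libraries and 4 fell and 0 rose in Cck-/- libraries. The shares of all genes that fell were 13.7% in transgenic and 5.62% in Cck-/- libraries, with 23.8% and 9.65% called. The transgenic count of 5 was 2 without the transgenic week 12 replicate 2 or the transgenic week 28 replicate 1, and 1 without both. Bdnf, a neurotrophin gene, was at 2.47 ± 0.42 FPKM at week 28 and 4.81 ± 0.81 FPKM at week 12 in transgenic libraries, and at 3.00 ± 0.44 FPKM at week 28 and 6.81 ± 0.71 FPKM at week 12 in Cck-/- libraries (SD, n = 3 each). Its fold changes were -0.74 (adjusted p = 0.00142) in transgenic and -0.97 (adjusted p = 0.000474) in Cck-/- libraries. Nrn1, a secreted factor for neurite growth, fell by 0.52 in transgenic libraries (adjusted p = 0.00536) and by 0.66 in Cck-/- libraries (adjusted p = 0.00292). Homer1, a scaffold of metabotropic glutamate receptors, fell by 0.41 in transgenic libraries (adjusted p = 0.0137) and by 0.61 in Cck-/- libraries (adjusted p = 0.00340), and its transgenic call was lost without either of 2 libraries, with an adjusted p of 0.0626 without the transgenic week 12 replicate 2.

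The other rapid transcription factors did not share one direction. Of 17 tested, 3 rose and 2 fell in transgenic libraries and 1 rose and 3 fell in Cck-/- libraries. Of all genes, 23.8% were called in transgenic and 9.65% in Cck-/- libraries, and 1 of the 17 fell in Cck-/- libraries without the Cck-/- week 12 replicate 3. Egr4, another zinc-finger factor of the Egr family, was lower by -0.93 (adjusted p = 0.00123) in transgenic and -0.69 (adjusted p = 0.0145) in Cck-/- libraries. The Cck-/- call of Egr4 was lost without either of 2 libraries, with an adjusted p of 0.0571 without the Cck-/- week 12 replicate 2. Klf2, a factor also strongly expressed in endothelial cells, was lower by -0.97 (adjusted p = 0.00180) in transgenic and -0.89 (adjusted p = 0.00691) in Cck-/- libraries. Ier5 rose by 0.39 in transgenic libraries (adjusted p = 0.00189) and by 0.29 in Cck-/- libraries (adjusted p = 0.0236), the Cck-/- call being lost without any of 4 libraries, with an adjusted p of up to 0.0879 without the Cck-/- week 12 replicate 1. Of 20 kinases and factors upstream, which carry calcium and cyclic AMP signals to these genes, 3 fell and 0 rose in transgenic libraries and 2 fell and 0 rose in Cck-/- libraries, beside 23.8% of all genes called in transgenic and 9.65% in Cck-/- libraries. The transgenic count was 0 without the transgenic week 12 replicate 3, without the transgenic week 28 replicate 1, and without the libraries with Xist and Y-linked transcripts, and the Cck-/- count was 1 without the Cck-/- week 12 replicate 3. The activity-regulated factor Mef2d was lower in both, by -0.22 (adjusted p = 0.0280) in transgenic and -0.37 (adjusted p = 0.00369) in Cck-/- libraries, the transgenic call being lost without any of 4 libraries, with an adjusted p of up to 0.0883 without the transgenic week 28 replicate 1. Across the median of the upstream list the difference was -0.090 in transgenic and -0.089 in Cck-/- libraries.

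**Figure D4:**
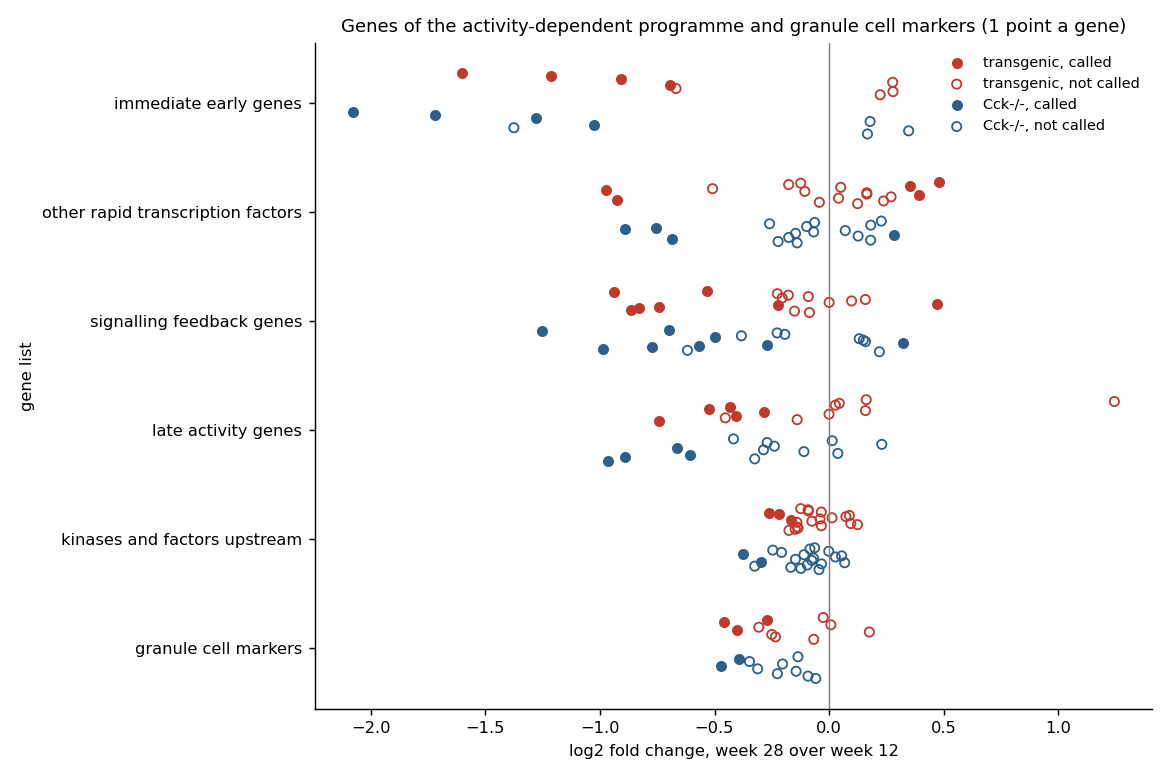
Log2 fold change of week 28 over week 12 (x axis) for each tested gene of 6 lists (rows) in transgenic (red, upper) and Cck-/- libraries (blue, lower). Filled points passed an adjusted p of 0.05 and open points did not. The NR4A genes and Fosl2 lie to the left, several feedback and late genes are between -0.4 and -1.3, and the upstream genes lie close to 0.

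In the genotype comparison some members of these lists passed. At week 28, 5 of the 17 other rapid transcription factors were higher and 1 was lower in transgenic libraries, beside 10.7% of all genes called. The count was 2 higher and 0 lower without the libraries with Xist and Y-linked transcripts, and also without the Cck-/- week 28 replicate 2, the Cck-/- week 28 replicate 3 or the transgenic week 28 replicate 1. Jun, the main AP-1 partner of Fos, was at 30.6 ± 4.64 FPKM in transgenic and 19.3 ± 1.97 FPKM in Cck-/- libraries (SD, n = 3 each; log2 fold change 0.64, adjusted p = 0.00148), and Jund was at 88.8 ± 5.67 FPKM in transgenic and 64.7 ± 5.54 FPKM in Cck-/- libraries (0.45, adjusted p = 0.000251). Both remained past the threshold when any library compared was left out, whereas Myc (0.32, adjusted p = 0.0170) and Atf3 (0.46, adjusted p = 0.0256) did not, with adjusted p up to 0.0989 without the transgenic week 28 replicate 2 for Myc and 0.109 without the transgenic week 28 replicate 1 for Atf3. Pcsk1, a late gene for a prohormone convertase, was lower at all 3 ages, by -0.87 (adjusted p = 0.00229) at week 5, -0.73 (adjusted p = 0.0212) at week 12 and -0.92 (adjusted p = 0.000804) at week 28. The week 12 call of Pcsk1 was lost without any of 5 libraries, with an adjusted p of up to 0.0803 without the transgenic week 12 replicate 1. Trib1 was also lower at all 3 ages, by -0.48 (adjusted p = 0.00296), -0.56 (adjusted p = 0.00274) and -0.39 (adjusted p = 0.00763) at weeks 5, 12 and 28. At week 28, 2 of 16 feedback genes were higher and 1 was lower, and 0 were higher without the libraries with Xist and Y-linked transcripts or without the Cck-/- week 28 replicate 2, the transgenic week 28 replicate 1 or the transgenic week 28 replicate 2. Of the late genes 1 of 13 was lower and of the upstream genes 2 of 20, and 0 of either list were higher, shares at or below that of all genes. The upstream count was 0 without the transgenic week 28 replicate 1. Markers of cell types also differed at week 28. In transgenic libraries 10 of 10 Purkinje markers were lower, and 5 of 10 microglia markers were higher and 0 lower. Of 10 Bergmann glia and astrocyte markers, 3 were higher and 5 lower. The part of cell content in the genotype differences of these lists was not tested.

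Within groups the members covaried in part. In deviations of each library from its group mean over 18 libraries, Pearson r was 0.89 for Fosl2 and Nr4a3, 0.78 for Fosl2 and Nr4a1, 0.75 for Fos and Junb, and 0.67 to 0.69 for the 3 pairs of NR4A genes. Of the 28 pairs, 15 were above 0 and the median was 0.157. Egr1 and Arc had an r of 0.47 with each other and below 0 with each NR4A gene. These points share a library, and with it depth and the cells sampled, and the values are a description. The residual SD of Fos was 0.574 on the log2 scale, larger than that of 99.4% of 500 genes of like level, whose median was 0.0765. It was 0.316 for Nr4a1 (97.2%) and 0.294 for Nr4a3 (93.4%), and at the other end 0.142 for Fosl2 (58.6%). All 8 had a larger residual SD than the median of genes of like level.

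**Figure D5:**
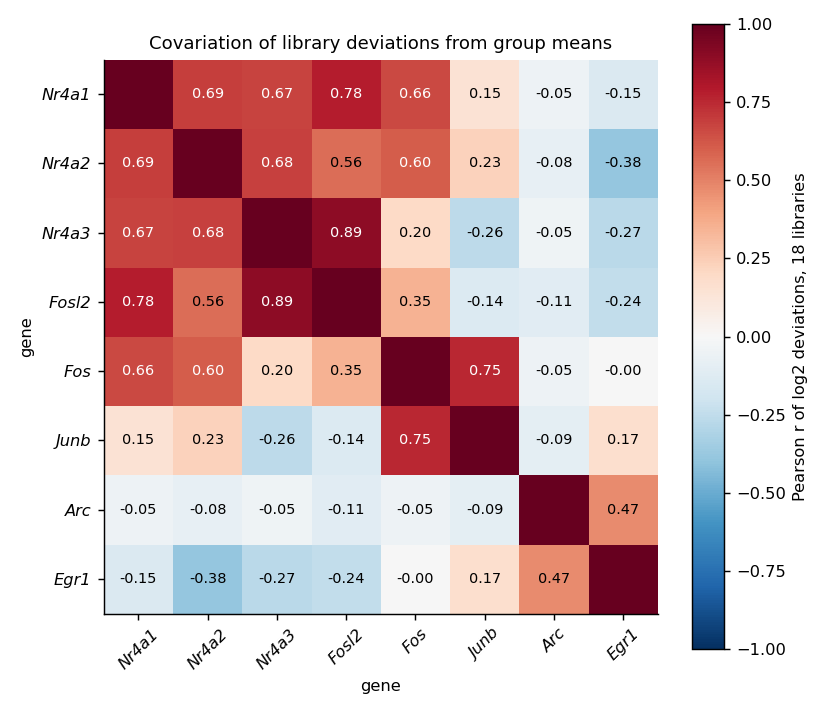
Pearson r between the 8 tested genes (rows and columns) of log2(FPKM + 1) deviations from the group means over 18 libraries, coloured from -1 (blue) to 1 (red). The NR4A genes and Fosl2 form a block from 0.56 to 0.89, Fos and Junb reach 0.75, and Egr1 and Arc are near 0 or below with the NR4A genes.

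Genes outside the 10 that most resembled the mean of the 8 tested members were sought among the tested genes, with predicted, clone-named and microRNA symbols left out. Over deviations from group means in 18 libraries, the closest was Npas4, a neuron-specific activity-induced transcription factor, with r = 0.94. Noc2l followed with 0.80, Dusp1, a phosphatase of MAP kinases, with 0.78 and the immediate early gene Ier2 with 0.74, then Pde3a, Ggnbp2, Tmem39a and Katna1 with 0.72 to 0.74. Npas4 ranged from 0.918 to 2.52 FPKM in transgenic and from 0.490 to 2.37 FPKM in Cck-/- libraries, and did not pass between weeks 28 and 12 (-0.18, adjusted p = 0.703 in transgenic; -0.26, adjusted p = 0.625 in Cck-/- libraries). Over the 18 library values themselves, the closest were Klhl42 (0.81), B4galt3 (0.79) and the clock gene Per1 (0.77), followed by Stk40, Maml1, Npas4, Wapal and Rplp2-ps1, all at 0.77. The mean of the members rests on those that vary together: its r with each member over deviations was 0.84 for Nr4a1 and 0.79 for Fos, and 0.13 for Egr1. Each member is itself part of that mean, which raises its r, so these values are not comparable with those of outside genes.

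Markers of cell types were read in the same comparison. Summed over 10 granule cell markers, the level was 1737 to 1837 FPKM in transgenic libraries of week 28 against 1914 to 2285 at week 12, and 1423 to 2005 FPKM in Cck-/- libraries of week 28 against 1916 to 2302 at week 12. Of those 10, 3 fell in transgenic and 2 in Cck-/- libraries and 0 rose, beside 23.8% of all genes called in transgenic and 9.65% in Cck-/- libraries, with median differences of -0.24 in transgenic and -0.21 in Cck-/- libraries. Both counts rested on single libraries, since 0 fell in transgenic libraries without the transgenic week 12 replicates 2 or 3 or the transgenic week 28 replicates 1 or 2, and 0 in Cck-/- libraries without the Cck-/- week 12 replicate 3. Purkinje markers summed to 1458 to 2796 FPKM at week 28 and 3053 to 3489 at week 12 in transgenic libraries, where 9 of 10 fell. They summed to 3751 to 4058 FPKM at week 28 and 3890 to 4028 at week 12 in Cck-/- libraries, where 0 of 10 passed. Microglia markers summed to 198.6 to 304.1 FPKM at week 28 and 127.3 to 193.6 at week 12 in transgenic libraries (9 of 10 rose), and to 133.8 to 194.8 at week 28 and 105.4 to 122.1 at week 12 in Cck-/- libraries (1 of 10 rose). The transgenic count of 9 was 3 without the transgenic week 12 replicate 3 or the transgenic week 28 replicate 2, and 6 without the libraries with Xist and Y-linked transcripts, and the Cck-/- count was 0 on leaving out the Cck-/- week 12 replicates 1 or 2 or the Cck-/- week 28 replicate 1. None of the markers of these 3 lists was at 0.

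Clock-controlled genes, whose levels follow the time of day, also moved. Of 14, 6 rose and 3 fell in transgenic libraries and 4 rose and 4 fell in Cck-/- libraries between weeks 28 and 12. Among all genes, 23.8% were called in transgenic and 9.65% in Cck-/- libraries. In transgenic libraries 4 rose and 2 fell without the libraries with Xist and Y-linked transcripts. Their sum was 382.4 to 404.1 FPKM at week 28 and 338.5 to 360.4 at week 12 in transgenic libraries, and 371.9 to 386.1 at week 28 and 342.4 to 363.5 at week 12 in Cck-/- libraries. Per1, which is itself induced by activity, fell by 0.39 in transgenic libraries (adjusted p = 0.0269) and by 0.86 in Cck-/- libraries (adjusted p = 0.000614), the transgenic call being lost without any of 3 libraries, with an adjusted p of up to 0.118 without the transgenic week 12 replicate 2. The part of granule cell, Purkinje cell or microglia content, clock phase or depth in the lower NR4A and Fosl2 levels at week 28 was not tested.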

How the data were processed

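Total RNA of dissected cerebella was made into Illumina TruSeq libraries, per the labels' protocols. The reads were aligned to mm10 with TopHat2 2.0.11 and quantified with Cufflinks 2.2.1, per the submitters' processing notes, and the authors deposited FPKM per gene symbol. The annotation used is not given in the sources used here. Read counts were not analysed here, so no count test was run and no counting intervals are printed. Relative depth was read from the steps between low FPKM values.

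Log2 values (FPKM plus a pseudocount of 1) of 13487 genes were fitted with limma 3.58.1 (R 4.3.3; the package for tables, data.table, was version 1.17.8), using a trended variance prior and separate means of the 6 groups. P-values are two-sided and adjusted by Benjamini and Hochberg within each of 13 comparisons, with a call at an adjusted p under 0.05. On simulated data for week 28 against week 12 in Cck-/- libraries (13487 genes), 85% of 100 genes changed by 0.5 and 96% of 100 changed by 1 (log2) were called, and 8 of 13287 unchanged genes. The changed genes were drawn at random among the better expressed genes. Because the members varied more than the median gene of like level, these rates do not carry over to them. All 10 members are named, up to 4 genes with the smallest p of each other list in a comparison described, and the 8 genes most like the members. Predicted, clone-named and microRNA symbols were left out of the last choice. The members and the 19 other lists (223 genes) were chosen with earlier results of these data known. Alternatives were pseudocounts of 0.1 and 0.5, other filters and scalings, robust or untrended fits, library weights, a replicate block, fits of the compared groups, and fits without libraries. Xist and choroid plexus levels as covariates were added after the data were seen. Promoter sequences came from RefSeq (GRCm38.p6). Python 3.11.15, pandas 2.3.3, numpy 2.4.6 and matplotlib 3.10.9 were used.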

Additional observations from a re-analysis of the deposited data

How the results depend on the processing

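The calls that Nr4a2, Nr4a3 and Fosl2 fell between weeks 28 and 12 passed in both genotypes under every alternative that tested them, and no difference of a member that passed changed sign under any alternative run. Library weights moved the number of members past the threshold to 2 for the genotype effect at week 28 (Egr1 and Junb), 1 for the averaged genotype effect (Arc), 1 for the interaction of weeks 28 and 5 (Egr1) and 2 between weeks 12 and 5 in Cck-/- libraries (Egr1 and Fosl2), against 0 in each. Without the libraries low in choroid plexus genes it was 1 for the averaged genotype effect (Egr1) and 3, against 6, between weeks 28 and 5 in transgenic libraries. With the choroid plexus level as a covariate it was 1 at week 28 and 1 averaged (Egr1 in both), Egr1 also rose between weeks 28 and 12 in Cck-/- libraries (adjusted p = 0.0463) and between weeks 28 and 5 in transgenic libraries (adjusted p = 0.0258), and Fos no longer passed between weeks 28 and 5 in transgenic libraries (adjusted p = 0.0573). The causes were not tested. Leaving out each library gave 0 to 1 member between weeks 12 and 5 in Cck-/- libraries (Egr1 without the Cck-/- week 12 replicate 3, adjusted p = 0.0481), 4 to 5 between weeks 28 and 12 and 5 to 6 between weeks 28 and 5. In transgenic libraries it gave 0 between weeks 12 and 5, 3 to 4 between weeks 28 and 12 and 4 to 5 between weeks 28 and 5, and it gave 0 in all genotype effects and interactions. Same-numbered libraries did not deviate together at every age (r from -0.16 to 0.44 over 9 pairs). The labels do not say whether a number is shared between groups, and these correlations cannot decide it. With the replicate block the counts of members were 0 for every genotype effect; between weeks 28 and 5 Arc passed in Cck-/- libraries (adjusted p = 0.0459) and Fos no longer passed in transgenic libraries (adjusted p = 0.0651). Of the single values, 2269 kept their side of the threshold, 35 lost a call, 21 gained one and 78 changed sign without passing before or after. The week 28 libraries were also the deepest, which limits the age comparisons.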

Other observations

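Other lists that bear on how the mice were handled were read in the same fit. Of 12 tested glucocorticoid response genes, 2 fell in transgenic libraries and 1 in Cck-/- libraries between weeks 28 and 12, and 0 rose, beside 23.8% of all genes called in transgenic and 9.65% in Cck-/- libraries. The transgenic count was 0 without the libraries with Xist and Y-linked transcripts and 1 without the transgenic week 12 replicates 1 or 2 or the transgenic week 28 replicate 1, and the Cck-/- count was 0 without the Cck-/- week 28 replicate 3. Cdkn1a was lower in both genotypes, by -0.50 (adjusted p = 0.0216; limma) in transgenic and -0.64 (adjusted p = 0.0134) in Cck-/- libraries, and each call was lost without at least 1 library. Of 10 cytosolic heat-shock genes, 4 fell in transgenic and 2 in Cck-/- libraries, and 0 rose. The transgenic count was 1 without the libraries with Xist and Y-linked transcripts and without the transgenic week 12 replicate 2 or the transgenic week 28 replicates 1 or 2, and the Cck-/- count was 1 on leaving out any 1 of 5 of the 6 libraries compared. Hsph1 was lower by -0.39 (adjusted p = 0.000259) in transgenic and -0.31 (adjusted p = 0.00199) in Cck-/- libraries, and both calls held without any single library. Of the other cell types in the same comparison, 1 of 10 inhibitory interneuron markers rose in transgenic and 2 in Cck-/- libraries, and 0 of 10 choroid plexus markers passed in either genotype. The Cck-/- interneuron count was 0 without the Cck-/- week 12 replicates 1 or 2 or the Cck-/- week 28 replicate 1. Of 10 Bergmann glia and astrocyte markers, 3 rose and 3 fell in transgenic and 1 fell in Cck-/- libraries. Of 10 meninges markers, 2 rose in transgenic and 0 in Cck-/- libraries. Of 8 unipolar brush and cerebellar nuclei markers, 2 fell in transgenic and 1 in Cck-/- libraries. In transgenic libraries without the libraries with Xist and Y-linked transcripts these were 0 rising and 1 falling Bergmann glia and astrocyte marker, 0 meninges markers and 1 unipolar brush or nuclei marker. Endothelial and mural, blood and brainstem markers and the tested forebrain and midbrain markers had 0 past the test in both genotypes.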
